A study of Homo sapiens with 24 samples.

Results

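The clustered histone genes are the replication-dependent genes for the linker histone H1 and the core histones H2A, H2B, H3 and H4. Members were all genes whose array probe set carried 1 gene symbol and whose symbol was H1-1 to H1-6 or began with H2AC, H2BC, H3C or H4C and a number. The rule used names only and no measured value. It found 55 of the 17448 genes tested: 6 H1, 14 H2A, 16 H2B, 8 H3 and 11 H4 genes. Of these, 49 lie in the large HIST1 cluster on chromosome 6, 3 in the HIST2 and 2 in the HIST3 group on chromosome 1. The remaining gene, H4C16 on chromosome 12, meets the rule by its symbol but stands alone outside the clusters.

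Cells make most of these histones only while they copy their DNA. The genes are short and mostly without introns, and their mRNAs end in a stem-loop that is bound by the protein SLBP in place of a poly(A) tail. Their transcription is organised in nuclear bodies by NPAT and CASP8AP2, and the mRNAs are degraded when replication stops. Other genes outside the clusters encode replacement histones, which are made throughout the cell cycle from polyadenylated mRNAs. Many H2A and H2B genes lie head to head and share the DNA between their starts as a promoter. H2B promoters are known for an octamer element bound by POU2F1, and CCAAT boxes are bound by the factor NF-Y.

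RNA of the established human cell line SW1222, from a colorectal cancer, was measured on 24 expression arrays as log2 signal after RMA, in which background is removed, arrays are equalised and the probes of a set are summarised. All cells were grown at 21% oxygen, in 9 groups. In the induction experiment, a line that overexpresses DPPA3 when given doxycycline (here the induced line) and its control line both received 5 µg/ml of the drug. They were grown for 3 arrays each as Matrigel-embedded megacolonies (3D) with the drug for the last 5 days, and for 3 arrays each in 2D with the drug for 4 hours. In the other experiments, all in 3D and without doxycycline, cells carried a DPPA3 shRNA or a control shRNA (3 arrays each), a scrambled guide RNA, or a CRISPR edit of DPPA3 as clone 66 or clone 75 (2 arrays each). Each edited line is 1 clone. The induced line was not analysed here in the absence of doxycycline, so a response to DPPA3 and a standing difference between the lines cannot be told apart. Nothing in the labels says that the arrays of a group came from separate cultures, so p-values measure only the spread between arrays, which may be technical.

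Over all genes, which are no independent replicates of each other, arrays of a group correlated at r = 0.987 to 0.994. The epithelial identity of the line was borne out by its markers: all 11 measured, among them EPCAM, CDH1 and CDX2, lay above the median gene. None of 6 leukocyte or 3 endothelial markers did, and 1 of 5 fibroblast markers, COL1A1, did with a mean of 4.24 against a median gene of 4.09. DPPA3 itself read 3.77, 4.54 and 4.74 in the induced line in 3D and 2.99, 2.59 and 2.97 in its control line (limma adjusted p = 0.00251). In 2D it read 4.73, 4.18 and 6.16 against 2.83, 3.27 and 3.47 (limma adjusted p = 0.000475). In the shRNA and knockout experiments DPPA3 lay below the median gene in every group, the controls included, and passed the test in no comparison, so the array gave no check of those labels. There the DPPA3 shRNA differed from its control by -0.04, clone 66 from the scrambled guide by -0.16 and clone 75 by 0.19.

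Signals of the histone probe sets spread over most of the range of the array. A total of 33 members were brighter than the median gene and 22 were dimmer, so both well measured and barely measured genes are among them. The brightest were H2AC6 with a mean over all arrays of 9.34, H2AC20 with 9.19, H1-4 with 9.14, H4C2 with 8.92, H3C11 and H4C5 with 8.60, H3C2 with 8.50 and H4C3 with 8.31. Each was brighter than at least 97.6% of genes. The dimmest were H2BC1 with 2.28, H4C7 with 2.39 and H1-6 with 2.49, of which H2BC1 and H1-6 are known as genes of the testis. Brightness depends on the probes as well as on the RNA, so no order of RNA amounts is read from it. Histone coding sequences are nearly identical between family members, so probes of one gene may also catch RNA of another. A further 16 histone probe sets, 13 of them distinct in their values, carried several symbols and were kept apart from the members, and 14 histone symbols occurred only in such sets.

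The promoters of the genes that were lower in the comparison described first below are shown because several of the genes are neighbours or belong to one class. Of the 9 genes, 8 have a promoter window in the RefSeq table of assembly GRCh38.p14, the exception being H3C12. Each line gives the 150 bases just before the annotated start of transcription, read from 5′ to 3′ in the direction of transcription. Capitals mark the motifs searched by exact match on both strands: CCAAT or its reverse complement, TATAAA, and the octamer ATTTGCAT.
H1-2, chr6:26056471-26056620, strand minus: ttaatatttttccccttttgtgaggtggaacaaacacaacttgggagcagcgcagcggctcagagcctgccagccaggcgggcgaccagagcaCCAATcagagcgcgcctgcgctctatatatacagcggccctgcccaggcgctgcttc
H1-5, chr6:27867589-27867738, strand minus: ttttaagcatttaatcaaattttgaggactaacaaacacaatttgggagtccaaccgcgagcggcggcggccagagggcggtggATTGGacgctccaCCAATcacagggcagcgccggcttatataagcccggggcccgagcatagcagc
H2AC14, chr6:27814778-27814927, strand minus: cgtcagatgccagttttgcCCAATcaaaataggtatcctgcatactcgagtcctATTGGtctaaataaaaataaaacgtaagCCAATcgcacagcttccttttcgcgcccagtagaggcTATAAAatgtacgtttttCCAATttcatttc
H2AC21, chr1:149887966-149888115, strand minus: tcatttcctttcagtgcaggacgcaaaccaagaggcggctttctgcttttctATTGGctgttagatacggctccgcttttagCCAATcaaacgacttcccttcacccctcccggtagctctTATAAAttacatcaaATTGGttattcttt
H2BC10, chr6:26272781-26272930, strand plus: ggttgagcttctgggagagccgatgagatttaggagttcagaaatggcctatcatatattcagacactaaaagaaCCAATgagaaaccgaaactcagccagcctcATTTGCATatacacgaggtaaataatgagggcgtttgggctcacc
H2BC14, chr6:27814872-27815021, strand plus: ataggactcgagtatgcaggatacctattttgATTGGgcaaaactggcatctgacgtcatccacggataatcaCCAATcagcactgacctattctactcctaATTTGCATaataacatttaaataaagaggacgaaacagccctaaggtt
H4C8, chr6:26285535-26285684, strand minus: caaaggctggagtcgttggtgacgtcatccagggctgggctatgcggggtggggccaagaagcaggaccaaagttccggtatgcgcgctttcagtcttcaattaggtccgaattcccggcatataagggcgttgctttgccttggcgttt
H4C13, chr6:27873535-27873684, strand minus: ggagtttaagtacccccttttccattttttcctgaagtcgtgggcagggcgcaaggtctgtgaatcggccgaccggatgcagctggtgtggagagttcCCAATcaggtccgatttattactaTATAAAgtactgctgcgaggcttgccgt

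Over the 250 bases before the start, 50 of the 55 members had a window. The octamer was found on either strand in 10 of 13 H2A windows and 13 of 16 H2B windows, and in 0 of 6 H1, 0 of 6 H3 and 0 of 9 H4 windows, against 2.03% of 27305 genes of the table. The starts of 9 head-to-head H2A and H2B pairs lie 215 to 248 bases apart, so the windows of a pair overlap. A match between the starts can thus count for both genes, and 7 of these pairs held the octamer. CCAAT was found in 44 of the 50 member windows, or 88%, against 37% of all, and TATAAA in 34, or 68%, against 13.05%. Matches of different motifs were each counted even where they overlapped. Among H4 genes CCAAT was in 3 of 9 windows, while all windows of the other classes held it. The octamer lay within the printed bases of H2BC10 and H2BC14, starting 45 and 48 bases before the start, and farther upstream in H2AC14 and H2AC21. The octamer counted for H2AC14 is that of H2BC14, as their windows overlap, and the TATAAA of H2AC14 also lies in the window of H2BC14. Counted by window, the octamer was thus found in 4 of the 8 lower genes with a window and in 19 of the 42 other members. TATAAA was found in 4 of 8 and 30 of 42. A match is only a match of letters, and H4C8 has none of these motifs in its printed stretch.

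With DPPA3 induction in 3D, histone genes of every class were lower than in the control line. This comparison asks what sustained induction does to the cells as megacolonies. At an adjusted p under 0.05 over all genes, 9 of 55 members were lower and 0 higher, or 16.4% of members, where 5.70% of all genes were called, 2.77% lower and 2.93% higher. The 9 were H1-2 and H1-5, H2AC14 and H2AC21, H2BC10 and H2BC14, H3C12, and H4C8 and H4C13, which lie in both HIST1 and HIST2. The median log2 fold change of all members was -0.22, with 45 of 55 below 0, against a median of -0.01 over all genes. Among genes brighter than the median gene 9.58% were called.

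H2AC14, a gene for a canonical H2A, had the lowest fold change. Its signal was 3.32, 3.14 and 2.64 in the induced line and 4.66, 4.11 and 4.42 in the control line. The groups did not overlap, and all 3 induced arrays fell below the median gene while all 3 control arrays lay above it. As the 9 genes were picked by adjusted p in this comparison, the separation of their arrays adds no support. The difference was -1.36 (SE 0.22, 95% interval -1.82 to -0.91, limma adjusted p = 0.000195). H2AC21, an H2A gene of HIST2, was bright in both groups. It read 7.89, 8.02 and 8.18 in the induced line against 8.57, 8.74 and 8.28, a difference of -0.50 (SE 0.11, limma adjusted p = 0.00422). Its call was lost when variances were taken from the compared groups only (adjusted p = 0.0899, the highest over 13 alternatives, where the lowest was 0.000604). A probe set that carries the symbols H2AC18, H2AC19, H2AC20 and H2AC21 together was not called. That set had -0.33 (limma adjusted p = 0.409 over all probe sets), and its groups overlapped.

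H2BC10, an H2B gene, read 7.28, 7.07 and 7.19 in the induced line and 7.77, 8.10 and 8.31 in the control line. All induced arrays lay well under all control arrays, with a difference of -0.88 (SE 0.15, limma adjusted p = 0.000349). H2BC14, the ninth by adjusted p and named here after its values were seen, read 5.95, 5.51 and 6.32 against 6.85, 7.31 and 6.34. The highest induced and the lowest control array almost touched. Its difference was -0.90 (SE 0.23, limma adjusted p = 0.0146), and it was -0.70 without induced 3D replicate 2 (adjusted p = 0.094) and -0.67 without control 3D replicate 2 (adjusted p = 0.123). Over its 13 alternatives the adjusted p ran from 0.00303 to 0.123.

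H3C12 encodes a canonical H3. It read 7.26, 6.99 and 7.44 in the induced line and 8.16, 8.22 and 7.75 in the control line, lower by -0.82 (SE 0.15, limma adjusted p = 0.000742). H4C8 and H4C13 encode canonical H4. H4C8 read 5.17, 4.93 and 5.17 against 5.58, 5.54 and 5.65, which is -0.51 (SE 0.09, limma adjusted p = 0.00103). H4C13 read 6.99, 6.53 and 6.82 against 7.13, 7.26 and 7.52, which is -0.52 (SE 0.12, limma adjusted p = 0.00585). The H4C13 call was lost without induced 3D replicate 2 (-0.40, adjusted p = 0.0501) and without control 3D replicate 3 (-0.42, adjusted p = 0.0522). Over its 13 alternatives the adjusted p ran from 0.00306 to 0.0912.

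The linker histones H1-2 and H1-5 bind DNA between nucleosomes. H1-2 read 7.40, 7.42 and 7.47 in the induced line and 7.96, 7.82 and 8.02 in the control line, with little spread in either group. The difference was -0.50 (SE 0.11, limma adjusted p = 0.00404). H1-5 read 7.42, 7.02 and 6.93 against 7.67, 7.80 and 7.74, a difference of -0.61 (SE 0.13, limma adjusted p = 0.0052). The other 4 H1 genes, H1-1, H1-3, H1-4 and H1-6, did not pass, with values between -0.12 and 0.06.

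**Figure D1:**
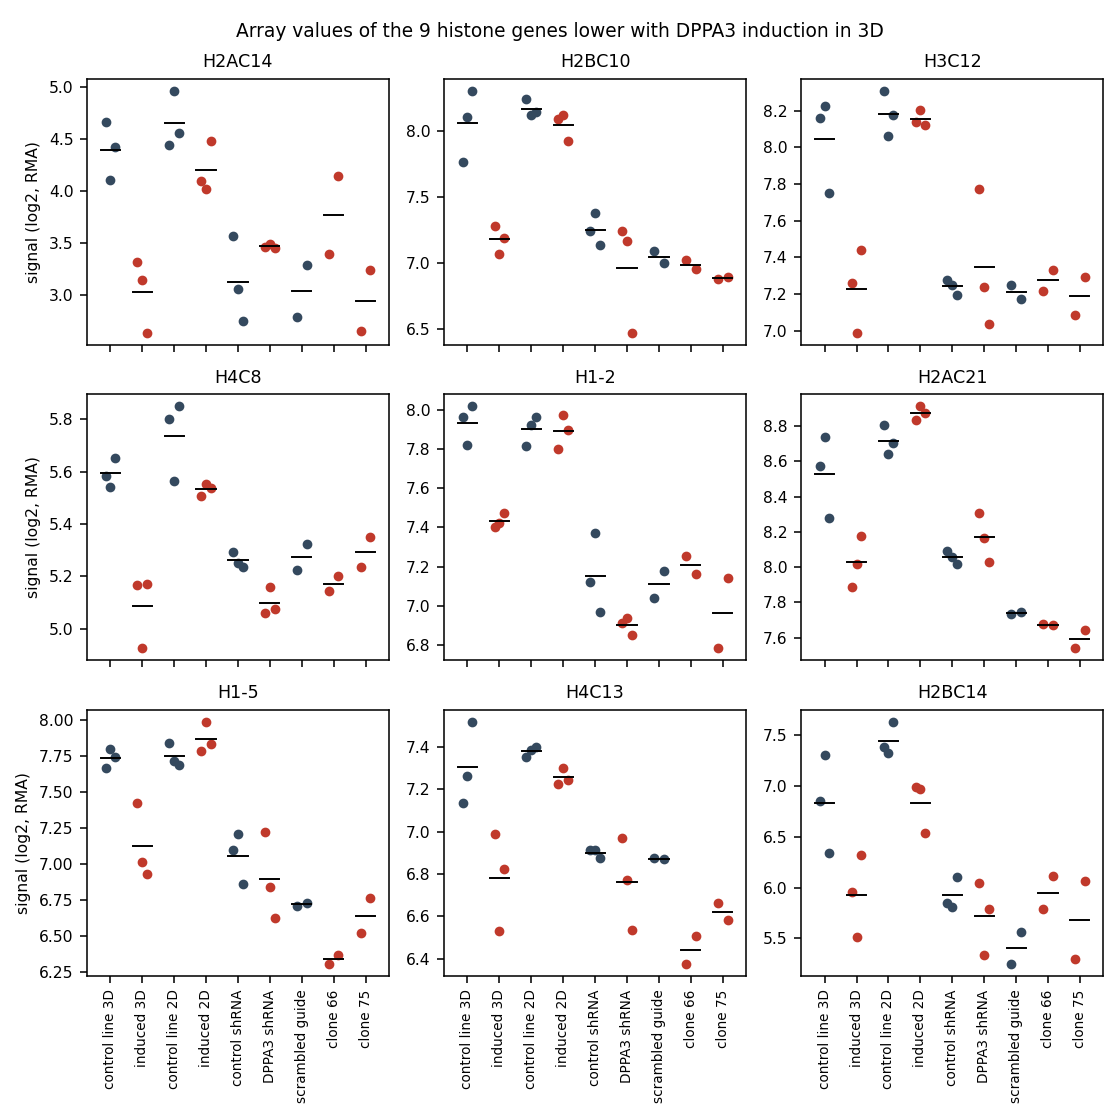
Log2 RMA signal (y axis, with its own range in each panel) of the 9 histone genes that were lower with induction in 3D, on every array of the 9 groups (x axis). Points are arrays, red where DPPA3 was induced, knocked down or edited, and bars are group means. In each panel the 3 induced 3D arrays lie below the 3 control line 3D arrays. The 9 genes were picked by adjusted p in this comparison, so their separation adds no support. The share of all genes without overlap was not counted.

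By class, 2 of 6 H1, 2 of 14 H2A, 2 of 16 H2B, 1 of 8 H3 and 2 of 11 H4 genes were lower. The class medians were -0.07 for H1, -0.22 for H2A, -0.20 for H2B, -0.25 for H3 and -0.30 for H4, so the lowest median was that of H4 and H1 was split. Of the 46 members that did not pass, 36 had values below 0, with a range from -0.54 to 0.42, and 11 had an unadjusted p under 0.05. The highest was H2AC25, an H2A gene of HIST3 (0.42, limma adjusted p = 0.104). Among the brightest genes, H4C2 had -0.47 (limma adjusted p = 0.0976) and H3C2 -0.33 (limma adjusted p = 0.171), whereas H2AC20 had 0.01 and H3C11 0.15. For 23 of the 55 members the 95% interval lay wholly between -0.5 and 0.5.

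**Figure D2:**
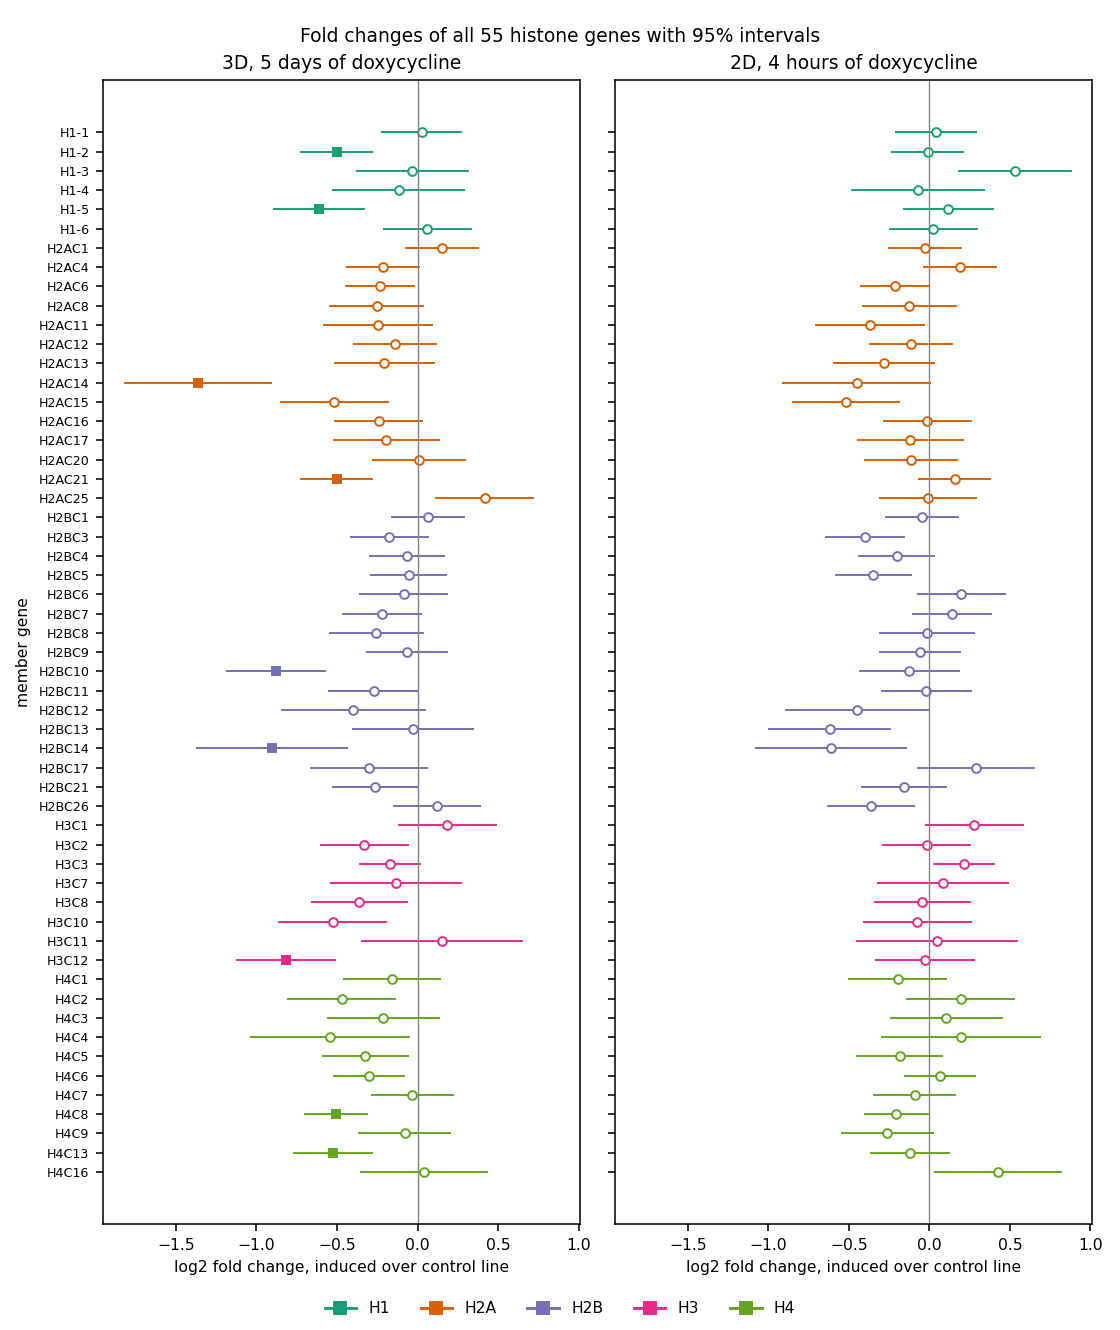
Log2 fold change of the induced over the control line (x axis) with 95% limma intervals for all 55 histone genes (y axis), in 3D after 5 days and in 2D after 4 hours of doxycycline. Filled squares mark genes called at an adjusted p under 0.05, open circles all others, and colours the 5 classes; 9 genes are called in 3D, all below 0, and 0 in 2D.

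Head-to-head pairs of H2A and H2B genes offered a view of neighbours. Both genes of a pair were members in 9 cases, with starts 215 to 248 bases apart, and 7 pairs held the octamer in either window. Both values were below 0 in 6 of the 9. Most members were below 0 in this comparison, so nothing about neighbours is read from this count. H2AC14 and H2BC14, whose starts lie 245 bases apart and whose printed stretches overlap on opposite strands, were both lower (-1.36 and -0.90). They were singled out after their values were seen. The genes of the other pairs were not called, for example H2BC8 and H2AC8 with -0.26 and -0.25, and H2AC1 and H2BC1 with 0.15 and 0.06.

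The mean signal over the 55 members was 5.42, 5.18 and 5.38 on the induced 3D arrays and 5.56, 5.63 and 5.54 on the control 3D arrays. Replicate 2 of the induced line thus had the lowest mean of histone signal in this comparison, while its signal for MKI67, a proliferation marker, was the highest of its group, with 7.30, 7.76 and 7.28. When each array was left out in turn, between 8 and 11 members were called. The shares of all genes called in these runs are not given here.

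Other genes of chromatin assembly and the cell cycle were described from lists chosen with earlier results of these data known. In the same comparison, 18 of 50 S phase and DNA replication genes were lower and 0 higher, with a median of -0.37. Those with the smallest adjusted p were MCM10, a replication initiation factor (-1.18), MCM7, a subunit of the replicative helicase (-0.71), and DNMT1, the maintenance DNA methyltransferase (-0.57). Of 26 G2 and mitosis genes 16 were lower and 0 higher, with a median of -0.43, led by UBE2C (-0.54), KIF23 (-0.64) and MKI67 (-0.56). The sliding clamp PCNA had -0.34 and did not pass (limma adjusted p = 0.168). The S phase count dropped to 11 without induced 3D replicate 1 or 3 or control 3D replicate 1, and to 10 without control 3D replicate 2. The mitosis count dropped to 7 and 6 without induced 3D replicates 1 and 3 and to 9 without control 3D replicate 3. With variances taken from the compared groups only, 8 S phase and 3 mitosis genes were called, and MKI67 was not (adjusted p = 0.0585). In bulk samples, fewer cells in S phase and less histone RNA per cell cannot be told apart.

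Among 26 histone chaperones and import factors, which carry newly made histones to DNA, 6 were lower and 0 higher. NASP, which holds soluble H3 and H4, read 7.14, 7.48 and 7.01 in the induced line and 7.95, 7.92 and 7.84 in the control line (-0.69, limma adjusted p = 0.000147). SSRP1, a subunit of the H2A-H2B chaperone FACT, had -0.54 and CHAF1B, a subunit of the replication-coupled assembly factor CAF-1, had -0.62. The count was 3 without induced 3D replicate 3, and CHAF1B did not pass without induced 3D replicate 1. The count was 2 with variances from the compared groups only, where SSRP1 did not pass (adjusted p = 0.0703).

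The factors that make and process histone mRNA are a separate list, in which 1 of 27 was lower and 0 higher. That gene was ZNF473, a factor associated with the U7 complex that cuts histone pre-mRNA (-0.46, limma adjusted p = 0.0419), whose call was lost under 9 of 13 alternatives, among them the omission of any array of either group except induced 3D replicate 2. SLBP read 6.31, 6.20 and 6.15 against 6.15, 6.30 and 6.18, so the groups overlapped (0.01, 95% interval -0.22 to 0.24). NPAT had -0.21 and CASP8AP2 -0.38, and neither passed (limma adjusted p = 0.407 and 0.192). Of 8 measured replacement and variant histones outside the clusters 0 passed in either direction, with values from -0.16 to 0.15.

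The sources used here do not say how RNA was primed for labelling, and the array does not tell stem-loop from polyadenylated transcripts. Beside the histone genes, 149 other RNAs that lack a long poly(A) tail, mainly small nucleolar and Cajal body RNAs, were therefore read. Of these 3 were higher and 3 lower, with a median of -0.01. The smallest adjusted p belonged to SCARNA11 (2.03), SCARNA14 (1.45) and SNORA3A (0.79), all higher. Calls of these other RNAs were not rerun under the alternatives. Of the 6 members with known polyadenylated transcripts, H1-2, H2AC6, H2BC4, H2BC5, H2BC12 and H2BC21, only H1-2 passed, and their median was -0.25.

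**Figure D3:**
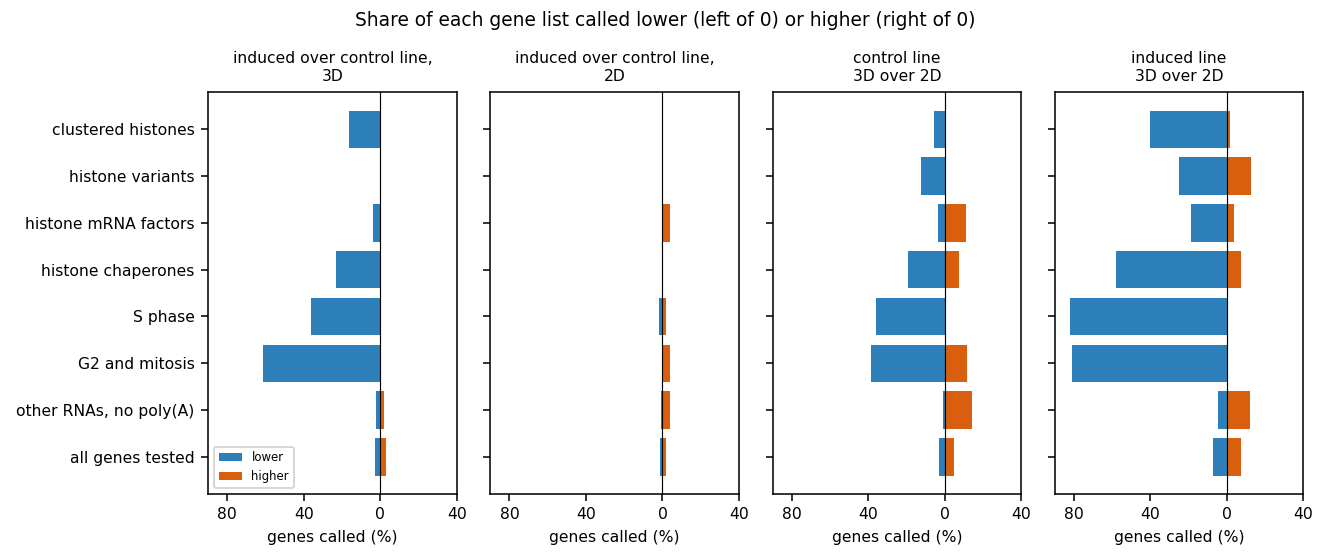
Percent of the measured genes of each list called lower (blue, left of 0) or higher (orange, right of 0) in 4 comparisons (panels; x axis, percent of genes). In 3D, 16.4% of the clustered histone genes, 36% of the S phase list and 61.5% of the G2 and mitosis list are lower with induction, and in 2D none of the histone genes is called.

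After 4 hours of doxycycline in 2D, which addresses the short-term response, no histone gene passed the test. By limma, 0 of 55 members were called where 3.13% of all genes were, and 13 members had an unadjusted p under 0.05. The median was -0.05, and 37 of the 55 intervals lay between -0.5 and 0.5. The members nearest to the threshold were named after their values were seen. H2BC3 read 3.73, 3.74 and 3.71 in the induced line and 4.22, 3.95 and 4.21 in the control line, with no overlap, at -0.40 (limma adjusted p = 0.0597). H2BC13 read 4.51, 4.02 and 3.86 against 4.58, 4.76 and 4.92, again without overlap, at -0.62 (limma adjusted p = 0.0627). H2AC15 had -0.52 (limma adjusted p = 0.0848). Leaving out 1 array gave 0 to 2 calls. H2BC13 was called without induced 2D replicate 1, and H2BC3 and H2BC5 were called without control 2D replicate 2. No share of all genes is given beside these counts.

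The genes that were lower in 3D were not called at 4 hours. H2BC10 read 8.09, 8.12 and 7.93 in the induced line in 2D and 8.24, 8.12 and 8.15 in the control line. H1-2 read 7.80, 7.98 and 7.90 against 7.82, 7.92 and 7.96, and H3C12 read 8.14, 8.21 and 8.12 against 8.31, 8.06 and 8.18. The groups overlapped for these 3 genes, and also for H1-5 and for H2AC14 (-0.45, limma adjusted p = 0.37). They did not overlap for the other 4 of the 9. How many of all genes had groups without overlap was not counted, so nothing is read from this. H2BC14 read 6.99, 6.97 and 6.54 in the induced line and 7.38, 7.33 and 7.63 in the control line, so all induced arrays were lower, but the difference did not pass (-0.61, limma adjusted p = 0.176). All induced arrays were also below all control arrays for H4C8 (-0.20, limma adjusted p = 0.333) and H4C13 (-0.12, limma adjusted p = 0.742), and above them for H2AC21 (0.16, limma adjusted p = 0.593). When the difference between the 3D and the 2D effect was tested directly, 0 of 55 members passed by limma, where 0.241% of all genes were called, although 19 members had an unadjusted p under 0.05. The median of that difference was -0.14. H2AC21 came nearest with -0.66 (95% interval -0.97 to -0.34, limma adjusted p = 0.0676) and was called without control 3D replicate 3. H2AC14 had -0.91 (limma adjusted p = 0.314). A change specific to 3D was therefore not shown for any member, and the conditions also differ in the length of doxycycline treatment.

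Of the other lists in 2D, 1 of 50 S phase genes was higher, TYMS, which makes thymidylate for DNA synthesis (0.60), and 1 lower, MCM10 (-0.70). COIL, the scaffold of Cajal bodies (0.46), was the only gene called of the 27 histone mRNA factors, and the kinase NEK2 (0.70) the only one of 26 mitosis genes. Both calls were lost without induced 2D replicate 1 or 3 and without control 2D replicate 1 or 3, and that of MCM10 without induced 2D replicate 2. SLBP had -0.02, NPAT 0.01, CASP8AP2 0.18, PCNA -0.19 and MKI67 -0.05, and none of these passed. No histone chaperone or variant histone was called.

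Culture in 3D over 2D was compared within each line, with 5 days of doxycycline on one side and 4 hours on the other. In the control line, 3 of 55 members were lower in 3D and 0 higher, where 7.80% of all genes were called (4.92% higher, 2.88% lower). The median over members was -0.17 and over all genes -0.02. H2BC13 read 3.51, 4.23 and 3.75 in 3D and 4.58, 4.76 and 4.92 in 2D, without overlap (-0.92, SE 0.18, limma adjusted p = 0.00218). H2AC20, one of the brightest members, read 9.61, 9.45 and 8.99 against 9.85, 9.995 and 9.73, also without overlap (-0.51, limma adjusted p = 0.023). H2BC4 read 3.81, 3.95 and 3.82 against 4.44, 4.08 and 4.15 (-0.37, limma adjusted p = 0.0437). H2BC13 was called under all 13 alternatives, whereas H2AC20 and H2BC4 lost their calls under 5 and 8 of 13. The number called was 5 without control 3D replicate 2 and 1 without control 2D replicate 1, with no share of all genes given beside them. H2AC20 also failed without control 3D replicate 3 or control 2D replicate 2. H2BC4 failed without any one of the 3 control 3D arrays or control 2D replicate 1 or 3.

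In the induced line, 22 of 55 members were lower in 3D than in 2D and 1 was higher, where 14.9% of all genes were called (7.55% higher, 7.35% lower). The median over members was -0.34 and over all genes -0.03. This comparison shares the induced 3D arrays with the line comparison described above, so its values stand beside the earlier ones and add no independent support. H2AC21 read 7.89, 8.02 and 8.18 in 3D and 8.84, 8.91 and 8.87 in 2D (-0.85, limma adjusted p = 5.37e-06). H3C12 had -0.93, H2BC10 -0.87, H1-5 -0.74, H2AC14 -1.17 and H4C8 -0.45. Also among the 8 with the smallest adjusted p were H2BC7, which read 3.70, 3.68 and 3.87 against 4.40, 4.43 and 4.38 (-0.65), and H2AC4, which read 3.07, 2.91 and 3.05 against 3.58, 3.30 and 3.72 (-0.52). None of these 8, taken by their adjusted p, overlapped between the cultures. The share of all genes without overlap was not counted here either. The other 14 lower members ranged from -0.91 to -0.34.

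The exception was H2AC25, an H2A gene of HIST3, with 4.54, 4.00 and 3.64 in 3D and 3.63, 3.66 and 3.57 in 2D, where the groups overlapped (0.44, limma adjusted p = 0.0426). Without induced 3D replicate 1 its difference was 0.20 (adjusted p = 0.381), and it was not called under 9 of 12 alternatives. Without induced 3D replicate 2, 13 members were called in place of 23. The share of all genes called without this array is not given here, so the drop is not read as particular to the histone genes. Among the rest of the lists, 41 of 50 S phase genes, 21 of 26 mitosis genes and 15 of 26 chaperones were lower in the induced line in 3D, and 2 chaperones were higher. In the control line 10 of the 26 mitosis genes were lower and 3 higher, and 5 of the 26 chaperones were lower and 2 higher. The 13 mitosis calls of the control line dropped to 5, 6 and 7 without control 3D replicates 1, 2 and 3, to 6 and 4 without control 2D replicates 2 and 3, and to 3 with variances from the compared groups only. Its 7 chaperone calls were 11 after re-centring and 3 with variances from the compared groups only. Of the 149 other RNAs without a long poly(A) tail, 18 were higher and 7 lower there, and 21 were higher and 1 lower in the control line in 3D.

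SLBP was lower in 3D in both lines. It read 6.15, 6.30 and 6.18 in 3D against 6.80, 6.99 and 6.81 in 2D in the control line (-0.66, limma adjusted p = 0.000472), and it had -0.63 in the induced line (limma adjusted p = 0.000268). NPAT (0.38) and CASP8AP2 (0.71) were higher in 3D in the control line (limma adjusted p = 0.0436 and 0.00582), and in the induced line had 0.16 and 0.14, which did not pass. The NPAT call was lost under 8 of 13 alternatives, re-centring of the arrays among them. The replacement histone gene H2AZ1 had -0.59 in the control line and -0.45 in the induced line and passed in both, though in the induced line not without induced 2D replicate 3 or with quantile normalization applied again. PCNA had -0.35 in the control line and did not pass, and fell by 0.50 on the log2 scale in the induced line, a call lost without induced 3D replicate 1 or 3 or induced 2D replicate 3. MKI67 had -0.25 in the control line, which did not pass, and fell by 0.76 in the induced line. Of the S phase list, 18 of 50 genes were lower in the control line, which dropped to 7 without control 3D replicate 2 and to 8 and 11 without control 2D replicates 3 and 2, and to 7 with variances from the compared groups only.

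Knockdown and knockout of DPPA3 ask whether its loss affects the same genes. No member passed in any of these comparisons. With the DPPA3 shRNA, 0 of 55 were called by limma, where 0.0860% of all genes were, and 1 had an unadjusted p under 0.05. The median was -0.02, the difference of largest size was 0.34, that of H2AC14, and 46 of 55 intervals lay between -0.5 and 0.5. H2AC14 read 3.47, 3.50 and 3.45 with the DPPA3 shRNA and 3.57, 3.06 and 2.76 with the control shRNA, so the groups overlapped. Against the scrambled guide, 0 members were called in clone 66 (1.43% of all genes; 3 members at an unadjusted p under 0.05), 0 in clone 75 (0.619%; 4 members) and 0 for the mean of both clones (0.321%; 3 members). Their medians were 0.01, -0.06 and -0.02.

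With 2 arrays per group the intervals of the knockout comparisons were wider, reaching 0.35 to either side of the estimate at the median, against 0.28 for the shRNA. Larger values therefore went uncalled. H2AC14 read 3.40 and 4.15 in clone 66 against 2.80 and 3.29 with the scrambled guide (0.73, limma adjusted p = 0.273), and 2.66 and 3.24 in clone 75. H2BC12 had -0.45 in clone 66 and -0.82 in clone 75 (limma adjusted p = 0.228). Between the clones 0 members passed by limma, where 2.90% of all genes were called and 4 members had an unadjusted p under 0.05. H4C9 came nearest, with 3.37 and 3.42 in clone 66 and 2.69 and 2.94 in clone 75 (0.58, 95% interval 0.24 to 0.93, limma adjusted p = 0.0631). These genes were named after their values were seen.

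The other lists were read in the same experiments. With the shRNA, 0 of 50 S phase genes, 0 of 26 mitosis genes, 0 of 27 histone mRNA factors and 0 of 26 chaperones passed by limma. In clone 66, the cytokinesis factors KIF23 (-0.77) and PRC1 (-0.54) and the cyclin CCNB2 (-0.71) were lower, and in clone 75 MCM10 was (-0.83). CCNB2 and PRC1 lost their calls without any one of the 4 arrays compared, KIF23 without scrambled guide replicate 1, and MCM10 without either scrambled guide array or clone 75 replicate 1. SLBP had 0.06 with the shRNA, -0.23 in clone 66 and 0.02 in clone 75, none of which passed, and NPAT, CASP8AP2, PCNA and MKI67 passed in none of these comparisons.

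Across all 9 groups the histone genes shared a pattern by experiment, which is given as a description. The mean over members was 5.65 to 5.75 on the 6 arrays in 2D, 5.18 to 5.63 on the 6 arrays in 3D with doxycycline, and 4.98 to 5.23 on the 12 arrays without it. Group means were highest in the control line in 2D for 31 members and in the induced line in 2D for 17. They were lowest in clone 75 for 16 members and in clone 66 and the control shRNA for 10 each. The same counts were not made for all genes, so no trait of the histone genes is read from them. The median distance between a member's highest and lowest group mean was 0.93, against 0.41 over all genes and 0.55 over genes brighter than the median gene. It was 2.05 for H2BC14, 1.70 for H2AC14 and 1.53 for H1-5, and the first of these exceeded 99.5% of genes. The median of the S phase list ran alongside, at 6.43 to 6.52 in 2D, 5.595 to 6.15 in 3D with doxycycline and 5.27 to 5.60 without, and its part in the histone levels was not tested. The 2D arrays and the 3D arrays with doxycycline hold the same lines but differ in culture and in length of treatment. The arrays without doxycycline differ from these in lines, drug and experiment together. Such differences cannot be told apart here.

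**Figure D4:**
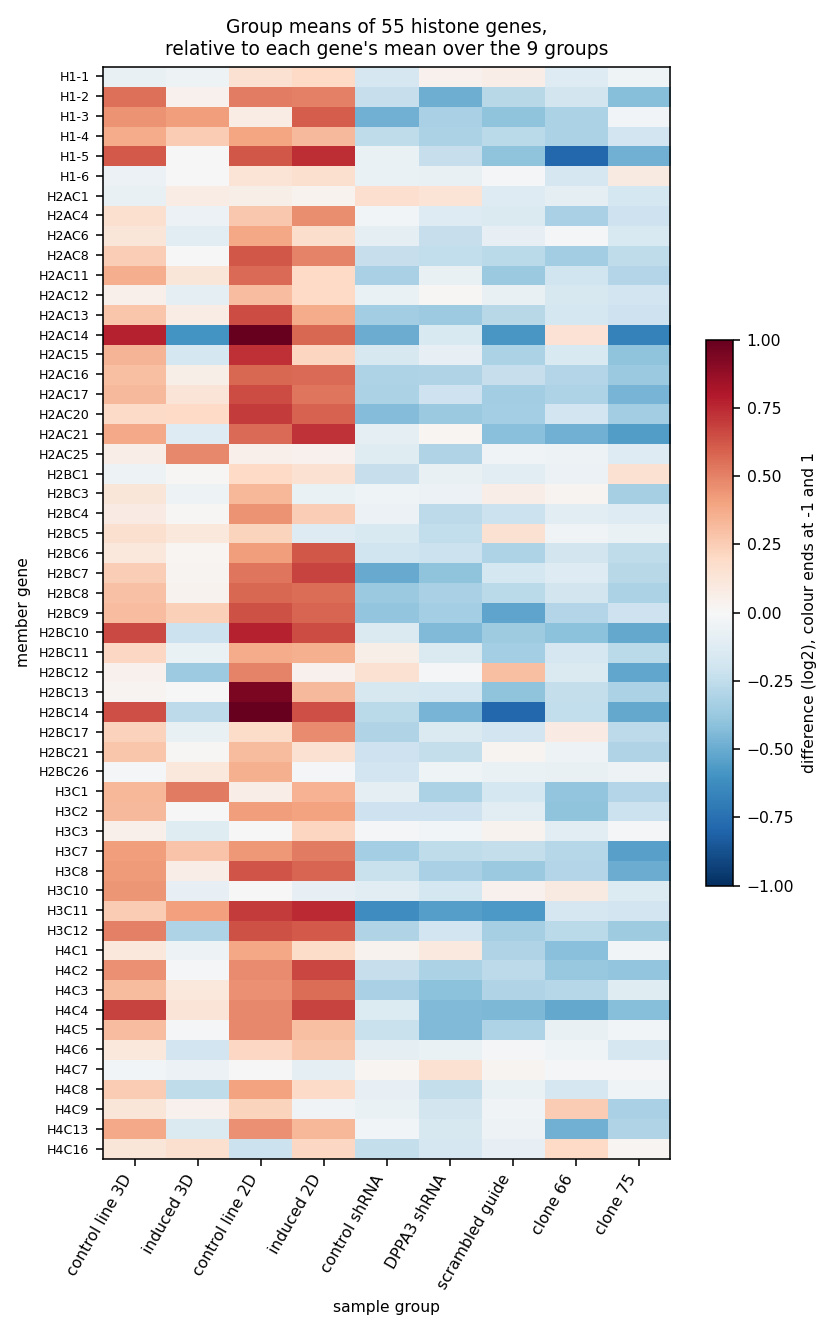
Group mean of each of the 55 histone genes (rows) in the 9 groups (columns), as the log2 difference from that gene's mean over groups, with red higher and blue lower and the colour scale ending at -1 and 1. The columns in 2D are mostly red, and the 5 columns without doxycycline mostly blue, with both 3D columns of the induction experiment between them.

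Counted over the 10 comparisons, 29 members were called in none, 17 in 1 and 9 in 2. The same count was not made for all genes, so no excess is read from it. The 9 called in 2 are those lower with induction in 3D, each of which was also lower in the induced line in 3D over 2D, a pair of comparisons that shares arrays. The probe sets with several histone symbols were read in the same way among all 20276 probe sets. None of the 13 distinct sets passed by limma for induction in 3D, where 5.30% of all probe sets were called, or in 2D, where 3.03% were. The set for H2BC15 and H2AC15 was lower in the induced line in 3D over 2D (-0.55, limma adjusted p = 0.00524), where 15.1% of all probe sets were called. Its call was not rerun under the alternatives.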

How the data were processed

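Total RNA of 24 SW1222 samples in 9 groups was extracted with Trizol and labelled as biotinylated cRNA, per the labels' protocols. The deposited values are log2 signals, for which the submitters' processing notes name RMA and Partek 6.6. RMA normalizes the arrays to each other, and their medians over all probe sets ran from 4.01 to 4.12, so a shift of total RNA between samples cannot be read from these values. The genome build behind the probe annotation, the priming of the RNA and the scanner files were not used here or are not given in the sources used.

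Of 20276 probe sets, 18062 carried 1 gene symbol, 1288 several and 926 were unnamed in the platform annotation given. For each of 17448 genes the brightest probe set was kept (468 genes had more than 1, no histone member did). All genes were fitted together in limma 3.58.1 (R 4.3.3), with 1 mean for each group of arrays. The moderated tests were 2-sided and used 15 residual plus 9.81 prior degrees of freedom. Within each comparison p-values were adjusted over all 17448 genes by Benjamini-Hochberg, and a gene was called if the result was under 0.05. The median standard error was 0.12 for 3 against 3 arrays and 0.15 for 2 against 2, and the number of arrays limits the precision. Promoter windows were taken from the RefSeq table of GRCh38.p14.

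The members, the lists and the naming rule were chosen with earlier results of these data known. The rule named, per comparison, up to 8 called members per direction by adjusted p, up to 3 called genes of each other list, the 8 brightest and 3 dimmest members, and SLBP, NPAT, CASP8AP2, PCNA, MKI67 and DPPA3 whatever their values. Other names are to be taken as chosen after their values were seen, and only some are marked so. The alternatives were a re-centring of arrays, a second quantile normalization, a filter on dim genes, all probe sets, a mean-variance trend, variances from the compared groups only, a replicate block and the omission of each array. They were run on the other lists and their genes too, which was decided after seeing the data. Left out of these runs were the other RNAs without a long poly(A) tail and the probe sets with several symbols.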

Additional observations from a re-analysis of the deposited data

Results flagged for a closer look

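No member was called for a difference between groups' effects. Among the genes read beside them, some differed between the knockout clones, which share the scrambled guide as control, by limma adjusted over all genes. In clone 66 over clone 75 the variant histone MACROH2A2 was higher by 0.70 (adjusted p = 0.00399) and MCM10 by 0.71 (adjusted p = 0.0228), and KIF23 (-0.61, adjusted p = 0.0105), PRC1 (-0.61, adjusted p = 0.00121) and the small nucleolar RNA SNORD74 (-0.67, adjusted p = 0.0447) were lower. The probe set shared by H4C15 and H4C14 was higher in clone 66 by 0.57 (adjusted p = 0.036), where 2.64% of all probe sets were called. It read 6.85 and 6.68 in clone 66, 6.32 and 6.07 in clone 75 and 6.45 and 6.39 with the scrambled guide. MACROH2A2 did not pass without clone 66 replicate 1 or clone 75 replicate 2, and MCM10 and KIF23 did not pass without clone 66 replicate 1 or 2 or clone 75 replicate 1. SNORD74 and the probe set of H4C15 and H4C14 were not rerun under any alternative.

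The effect of induction in 3D minus that in 2D was called for GINS1, a subunit of the replicative helicase complex (-0.82, adjusted p = 0.032), for the mitotic kinase AURKA (-0.89, adjusted p = 0.0359) and for SNORA67 (-1.38, adjusted p = 0.0257). AURKA lost its call under 14 of 19 alternatives and GINS1 under 10 of 19, while SNORA67 was not rerun under them.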

How the results depend on the processing

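The number of members called for induction in 3D was 9, and ran from 6 to 11 under the other settings and from 8 to 11 without single arrays. It was 0 under all alternatives for the shRNA, each clone and the mean of the clones. For induction in 2D it was 1 with quantile normalization applied again, 2 without dim genes, 1 with the replicate block, and 0 to 2 without single arrays. For the difference of effects it was 1 without dim genes, 1 with the mean-variance trend, and 0 to 1 without single arrays. Between the clones it was 2 with the replicate block (H2AC14 and H4C9) and 1 with variances from the compared groups only. For the control line in 3D over 2D it was 5 after re-centring, 1 with variances from the compared groups, and 1 to 5 without single arrays. For the induced line it ran from 13 to 27 without single arrays, with 23 on all arrays. The shares of all genes called under these settings are not given here. No moved count of members is therefore read as particular to the histone genes.

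Deviations of same-numbered arrays from their group means correlated weakly over genes (r from -0.21 to 0.17). With 2 or 3 arrays per group this cannot exclude a pairing by number, and the main fit used none. Over the 35 calls of members, 391 of 449 recomputed values kept direction and call, 58 kept direction only and 0 changed sign, and 19 calls held throughout. Over the 57 calls named from other lists, 635 of 737 kept both, 102 kept direction only and 0 changed sign. For the S phase list in 3D, variances from the compared groups alone left 8 genes called in place of 18, for the G2 and mitosis list 3 in place of 16 and for the chaperones 2 in place of 6. The cause of these shifts was not tested. With 2 or 3 arrays per group, values within an interval given cannot be told apart. Of the 22 members dimmer than the median gene, 1 was called for induction in 3D and 9 for the induced line in 3D over 2D. The matching shares of all dimmer genes are not given here, so these counts are description only.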
